A study of Mus musculus with 24 samples.

Results

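Gene expression in the kidney of wild type mice was set against that in the brain of the same mice. The data were 8 bead arrays, 4 of kidney and 4 of brain, out of 24 arrays in the series, and they were chosen by the tissue and genotype given in the labels. All mice were of the strain C3HeB/FeJ and 18.5 weeks old, and each of the 4 mice gave both organs, so that kidney and brain were compared within a mouse. The other arrays were from wild type heart and from the same 3 organs of 4 further mice, which carried the Kctd1 substitution L27N on 1 allele. The labels name the whole organ only, and give neither a region nor a cell sort. Wild type means here that the mice carried no Kctd1 substitution by their labels.

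The kidney is built mainly of tubules, whose successive segments take back water, salts, sugars, amino acids and phosphate from the filtrate and secrete drugs and organic acids into it. The proximal tubule does most of this work, burns fatty acids to pay for it, makes glucose and activates vitamin D. The brain holds neurons, which signal through synaptic vesicles, transmitter receptors and voltage-gated channels, together with astrocytes, myelin-forming oligodendrocytes, microglia and vessels. A whole-organ RNA sample mixes all these cells. Fewer cells of a type and less RNA per cell cannot be told apart in such a sample.

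Each array measured 25697 probes, with an intensity averaged over beads and a p-value for its detection. Values below are log2 intensities after background correction and normalization of the 8 arrays together, on which an undetected probe lies a little above 4. A probe entered the test if 2 or more of the 4 arrays of one organ detected it (detection p under 0.05), which left 14163 probes. Of these, 13355 had a gene name, for 9885 genes, and each gene was represented by its brightest tested probe. Counts of probes include those without a gene name. A gene was called where the adjusted p was under 0.05 and the difference 2-fold or more, in a limma fit with the mouse as a block. Kidney arrays detected 11331, 10802, 10906 and 10692 probes in mice 1 to 4, and brain arrays of these mice 12929, 12687, 12530 and 12358. Every kidney detected fewer probes than the brain of its mouse, by 1598 to 1885, and the exact paired permutation test gave p = 0.13, the smallest two-sided value that 4 pairs allow. With 4 mice, the number of arrays limits the precision. Arrays 1 to 8 of the study were brain and 17 to 24 kidney, so that the order of the arrays and the tissue cannot be told apart.

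The organs differed across a large part of the genes measured. Of 9885 genes tested, 1666 were higher in kidney (16.9%) and 1751 were higher in brain (17.7%), 34.6% in all. The median log2 difference was 1.86 among the genes higher in kidney and −1.98 among those higher in brain. A difference of 16-fold or more was reached by 185 genes in the direction of kidney and by 251 in the direction of brain. The 4 kidney values did not overlap the 4 brain values for 69.3% of all genes tested. Among probes detected on all 8 arrays the median SD over mice was 0.15 in kidney and 0.12 in brain. The normalization gives every array the same distribution of values. Where the array medians were aligned instead, the median difference of all probes tested was −0.26, and 1640 probes were called higher in kidney and 3388 higher in brain, against 2261 and 2339.

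**Figure D1:**
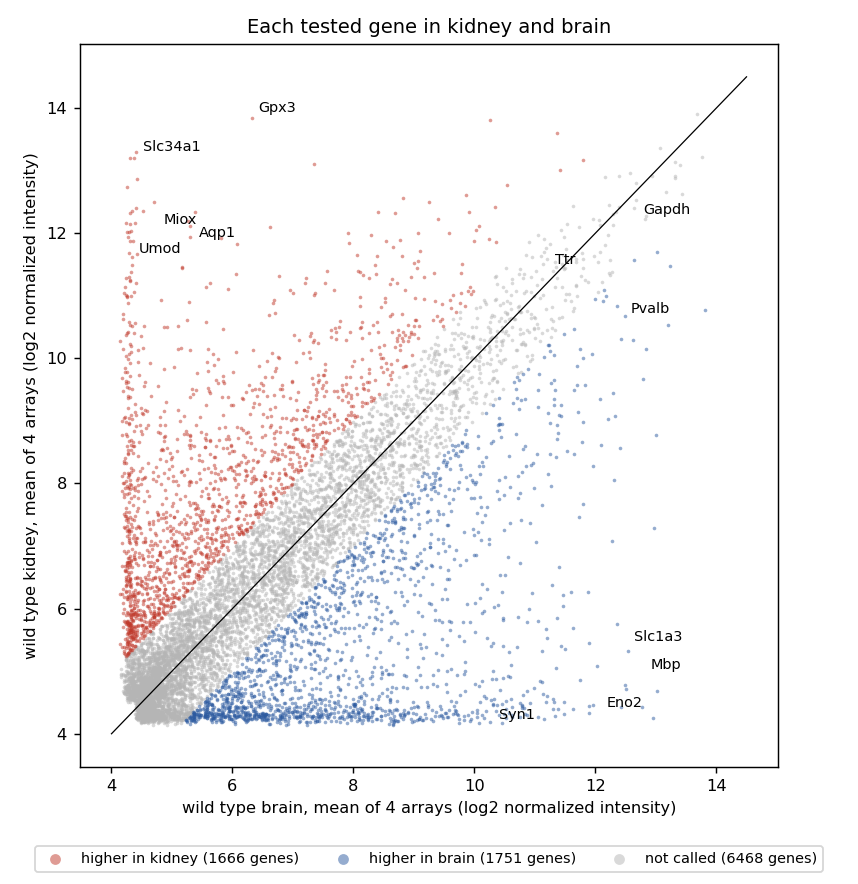
Mean log2 normalized intensity of 4 wild type kidney arrays (vertical axis) against 4 wild type brain arrays (horizontal axis) for each of 9885 tested genes, 1 point per gene, with the line of equal values. Genes called higher in kidney (1666) lie above the line and those called higher in brain (1751) below it, with columns of undetected genes near 4 on each axis.

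Among genes that every array of both organs detected and whose values did not overlap, Miox, Gpx3 and Slc22a6 had the largest differences towards kidney. Miox, the enzyme that opens the ring of inositol for its breakdown, had values of 12.76, 12.25, 12.50 and 12.50 in the kidneys of mice 1 to 4, against 4.63, 4.82, 4.77 and 4.62 in their brains. The kidney values lay close together and far above all brain values, a difference of 7.79 ± 0.12 (SE, adjusted p = 1.07e-14) or 222-fold. Gpx3, the secreted glutathione peroxidase that the kidney releases into plasma, had 13.79, 13.79, 13.83 and 13.93 in kidney, against 6.55, 6.20, 6.38 and 6.19 in brain, a difference of 7.51. Slc22a6, the organic anion transporter of the basal side of tubule cells, had 12.13, 12.54, 12.19 and 12.47 in kidney and 5.40, 5.42, 5.11 and 5.57 in brain, a 124-fold difference. Slc27a2, which activates very long chain fatty acids, differed 121-fold, and the water channel gene Aqp1 100.2-fold. The other 10 of the 15 leading genes were Pter (113-fold), the acetyltransferase gene Nat8 (78.1-fold), the D-lactate dehydrogenase gene Ldhd (77.6-fold), Wfdc2 (69.3-fold), the ketohexokinase gene Khk (69.1-fold), the oxidase subunit gene Cyba (54.1-fold), the drug efflux transporter gene Slc47a1 (54.1-fold), the glycosyltransferase gene Gcnt1 (49.9-fold), the histidine decarboxylase gene Hdc (49.2-fold) and Aspdh (48.3-fold).

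Towards brain, Slc1a3, Vsnl1 and Thy1 led the genes chosen in the same way. Slc1a3, the glutamate transporter of astrocytes, had 5.39, 5.39, 5.26 and 5.28 in kidney, against 12.46, 12.66, 12.50 and 12.57 in brain, a difference of −7.22 ± 0.09 (SE, adjusted p = 6.23e-15). Vsnl1, a neuronal calcium sensor, had 4.87, 5.13, 5.15 and 5.19 in kidney and 12.03, 11.98, 12.01 and 12.07 in brain. Thy1, a surface glycoprotein of neurons and T cells, had 5.07, 4.70, 4.87 and 4.80 in kidney and 11.74, 11.66, 11.75 and 11.82 in brain. The kidney values of these genes were low but detected on all 4 arrays. Lower in kidney by similar amounts were the vesicle protein gene Syp (97.5-fold), the myelin claudin gene Cldn11 (87.4-fold), Neurl1a (79.0-fold), the potassium channel subunit gene Kcnab2 (71.1-fold), the aldolase gene Aldoc (65.4-fold), the proton pump subunit gene Atp6v1g2 (61.8-fold), Rab6b (55.4-fold), Rims3 (51.3-fold), Syt11 (51.0-fold), Plekhb1 (50.9-fold), the kinase gene Camk2a (49.4-fold) and Rasgrp1 (48.6-fold).

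Many called genes were detected in a single organ of the pair. Of the genes called higher in kidney, 332 were detected on all 4 kidney arrays and on no brain array, and of those called higher in brain, 605 were detected on all 4 brain arrays and on no kidney array. Such a gene enters the test through the organ that holds it. Its fold is given as a lower bound, the mean of the bright organ against the detection limit or the probe's own value in the other organ, whichever was higher on each array. The call itself used the values below the detection limit. A called gene can therefore have a bound under 2-fold, as do Foxi1, Cx3cr1 and Otx2 below. Of the 332 genes, 205 were detected on no wild type heart array either and 67 on all 4. Of the 605 genes, 346 were detected on no heart array and 145 on all 4.

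The highest bound towards kidney was that of Napsa, which encodes the aspartic protease napsin A. Its values were 13.18, 13.29, 13.36 and 13.36 in kidney, against 4.42, 4.44, 4.30 and 4.48 in brain, a difference of at least 448-fold. Cyp2e1, the ethanol-inducible cytochrome P450, had 12.23, 12.27, 12.52 and 12.28 in kidney, against 4.28, 4.34, 4.34 and 4.26 in brain, at least 229-fold. Umod, which encodes the uromodulin that tubule cells shed into urine, had 12.11, 11.97, 11.82 and 11.64 in kidney and 4.28, 4.35, 4.35 and 4.25 in brain, at least 168-fold. In the same class were Dnase1 (at least 304-fold), Hsd3b4 (at least 205-fold), the fatty acid hydroxylase gene Cyp4a12a (at least 202-fold), the collectrin gene Cltrn (at least 186-fold), Ugt3a1 (at least 185-fold), Acsm3 (at least 185-fold), the sodium pump regulator gene Fxyd2 (at least 174-fold), the alcohol dehydrogenase gene Adh1 (at least 146-fold), the glycine conjugation enzyme gene Glyat (at least 128-fold), the kininogen gene Kng1 (at least 119-fold), Tmem174 (at least 112-fold) and the uroguanylin gene Guca2b (at least 111-fold). Hsd3b4 and Cyp4a12a have close relatives in mouse, and a probe may read more than one of them.

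Towards brain, Rasgrf1, a calcium-dependent activator of Ras in neurons, had the highest bound, with 4.24, 4.30, 4.22 and 4.22 in kidney and 12.76, 12.99, 12.98 and 13.11 in brain, at least 312-fold. Cplx1, which clamps and triggers vesicle fusion, had 4.37, 4.19, 4.62 and 4.53 in kidney and 12.85, 12.85, 12.63 and 12.76 in brain, at least 274-fold. Syn1, which tethers synaptic vesicles, had 4.49, 4.36, 4.40 and 4.31 in kidney and 11.18, 11.30, 11.37 and 11.38 in brain, at least 99.1-fold. No kidney array detected these genes, and every brain array did. The further genes were the translation factor gene of neurons and muscle Eef1a2 (at least 156-fold), Arpp21 (at least 149.6-fold), Bcas1 (at least 149-fold), Diras2 (at least 124-fold), the brain sulfotransferase gene Sult4a1 (at least 112-fold), the kinesin gene Kif5c (at least 105-fold), the calcium sensor gene Caln1 (at least 101-fold), Vstm2l (at least 100.1-fold), the kinase gene Camk2b (at least 88.7-fold), the Cdk5 activator gene Cdk5r1 (at least 83.4-fold), 6330403K07Rik (at least 73.2-fold) and the vesicular GABA transporter gene Slc32a1 (at least 71.5-fold).

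**Figure D2:**
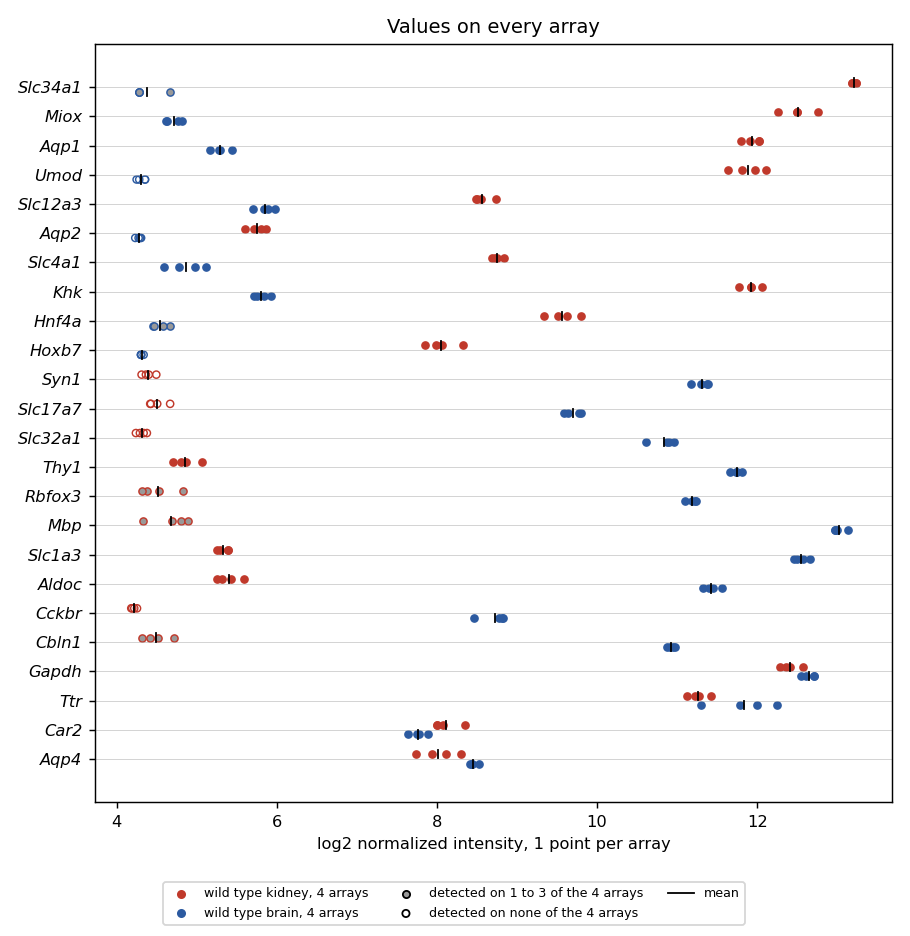
Log2 normalized intensity on each of the 8 arrays for 24 genes, with 4 wild type kidney arrays (red, upper row of a gene) and 4 wild type brain arrays (blue, lower row), filled where all 4 arrays of the organ detected the probe, grey where 1 to 3 did and open where none did. The first 10 genes lie higher in kidney, least so for the dim gene Aqp2 (1.47 log2), and the next 10 lie far higher in brain. For Gapdh, Ttr, Car2 and Aqp4 the organs lie within about a log2 unit of each other.

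Marker genes of the organs were listed, and the nephron was followed segment by segment. The lists were chosen with earlier results of these data known. Many of their members entered the test only through the organ where they were high. The lists are thus a description and no check of the organ labels. Members without a named probe on the array, or detected on fewer than 2 arrays of each organ, could not be tested. Counts are therefore of tested members. The shares over all genes tested, 16.9% higher in kidney and 17.7% higher in brain, are the background for each. A median with the bounds takes members undetected in the lower organ at their bound. In some lists another background correction, scaling, filter or fit, or leaving out 1 mouse, moved a count of calls by over 1.5 times. The range of that count over these alternatives is then given, save for some counts of very few genes. Over all genes tested the median log2 difference was −0.01.

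Of 34 listed proximal tubule genes, 25 were tested, of which 23 were higher in kidney and 0 higher in brain, with a median difference of 5.12 (5.02 with the bounds). Slc34a1, the phosphate carrier of the brush border, had 13.24, 13.18, 13.24 and 13.18 in kidney, against 4.67, 4.28, 4.27 and 4.28 in brain, where the array of mouse 1 alone detected it. Cyp4b1 (349-fold, detected on 1 of 4 brain arrays), the androgen-regulated kidney protein gene Kap (258-fold, detected on 1 of 4 brain arrays) and Keg1 (258-fold, detected on 1 of 4 brain arrays) followed. The nuclear receptor gene Hnf4a, a regulator of proximal tubule genes, had 9.80, 9.62, 9.33 and 9.51 in kidney, against 4.67, 4.46, 4.58 and 4.47 in brain, where 2 arrays detected it. Slc6a19, the neutral amino acid carrier of the brush border, was higher in kidney at least 18.4-fold. Slc22a8 (5.43 ± 0.34 in kidney, 4.59 ± 0.18 in brain, SD, n = 4 each) and Lrp2, the endocytic receptor megalin (4.92 ± 0.20 in kidney, 4.36 ± 0.09 in brain, SD, n = 4 each), were tested and not called. The kidney values of Lrp2 were dim, and 3 of the 4 kidney arrays detected its probe.

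Along the loop of Henle, 7 of 12 tested genes were higher in kidney and 3 higher in brain (median 1.43, 1.33 with the bounds). Besides Umod, the sodium, potassium and chloride carrier gene Slc12a1 (at least 47.7-fold), the growth factor gene Egf (51.6-fold, detected on 2 of 4 brain arrays) and the chloride channel subunit gene Bsnd (at least 7.75-fold) were higher in kidney. Ptger3 (4.78 ± 0.14 in kidney, 4.28 ± 0.03 in brain) and the potassium channel gene Kcnj1 (4.80 ± 0.23 in kidney, 4.33 ± 0.08 in brain; SD, n = 4 each) were not called. The members higher in brain were Epha7 (2.76-fold, detected on 1 of 4 kidney arrays), an ephrin receptor, Enox1 (at least 4.77-fold) and Ppp1r1b, which encodes the phosphatase inhibitor DARPP-32 of striatal neurons and had 7.64, 7.96, 7.83 and 7.68 in kidney and 10.03, 10.06, 10.17 and 10.14 in brain. Every kidney array detected Ppp1r1b, at values well below those of brain.

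In the distal convoluted tubule, 5 of 7 tested genes were higher in kidney (median 2.33, 2.10 with the bounds, range 3 to 5 higher in kidney over the alternatives). Slc12a3, the thiazide-sensitive salt carrier, had 8.50, 8.55, 8.48 and 8.73 in kidney and 5.89, 5.70, 5.84 and 5.98 in brain, 6.57-fold. All 3 tested probes of Slc12a3 were called higher in kidney, with differences of 1.14 to 5.92 log2. Kl, which encodes klotho, the coreceptor of the phosphate hormone FGF23, had 10.11, 9.97, 10.24 and 10.35 in kidney and 4.95, 5.59, 5.09 and 5.00 in brain, 32.2-fold, while its least different probe gave 0.46 log2. Tmem52b (at least 9.76-fold) and the kinase gene Wnk4 (at least 4.30-fold) were higher in kidney, and the exchanger gene Slc8a1 (6.89 ± 0.21 in kidney, 6.15 ± 0.09 in brain, SD, n = 4 each) was not called. Pvalb, a calcium buffer of both distal tubule cells and fast-spiking interneurons, went the other way, with 10.70, 10.67, 10.69 and 10.66 in kidney, against 12.41, 12.52, 12.52 and 12.49 in brain. Both organs held it at high values, with a spread of 0.02 (SD) over the kidneys, and brain was higher 3.51-fold.

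Collecting duct genes were followed in principal and in intercalated cells. Of 11 tested genes of principal cells, 9 were higher in kidney and 0 higher in brain (median 2.99, 2.79 with the bounds). They included Fxyd4 (at least 15.1-fold), the water channel gene Aqp3 (at least 11.0-fold), the sodium channel genes Scnn1b (at least 10.1-fold) and Scnn1a (8.78-fold, detected on 1 of 4 brain arrays), the glucocorticoid-inactivating enzyme gene Hsd11b2 (at least 7.15-fold) and the keratin gene Krt8 (at least 6.90-fold). Aqp2, the water channel that vasopressin moves to the membrane, had 5.60, 5.80, 5.71 and 5.86 in kidney and 4.27, 4.29, 4.23 and 4.30 in brain, at least 2.39-fold. Krt18 (4.75 ± 0.19 in kidney, 4.21 ± 0.05 in brain) and Aqp4, a water channel of principal cells and of astrocyte endfeet (8.02 ± 0.24 in kidney, 8.45 ± 0.05 in brain; SD, n = 4 each), were not called. Of 8 tested genes of the acid-secreting and base-secreting intercalated cells, 6 were higher in kidney (median 1.19, 0.97 with the bounds, range 2 to 6 higher in kidney over the alternatives). Slc4a1, the anion exchanger of these cells and of red cells, had 8.69, 8.84, 8.72 and 8.75 in kidney and 4.98, 5.11, 4.77 and 4.58 in brain, 14.8-fold. Slc26a4 (6.16-fold), Slc4a9 (at least 3.28-fold), the ammonia channel gene Rhcg (at least 2.15-fold) and the transcription factor gene Foxi1 (at least 1.78-fold) were also higher in kidney. Oxgr1 (0.59 log2) and the carbonic anhydrase gene Car2 (0.34 log2) were not called.

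The glomerulus was thinly covered, with 8 of 15 listed genes on the array and 5 tested. Wt1 (2.46-fold, detected on 1 of 4 brain arrays) and Podxl (2.01-fold, detected on 3 of 4 brain arrays) were higher in kidney, Ptpro, a phosphatase of podocytes and of neurons, was higher in brain (2.47-fold), and Cdkn1c and Clic5 were not called. With the array medians aligned the count was 1 in each direction, and under 1 alternative the majority turned. Over the alternatives the counts ranged from 0 to 2 higher in kidney and from 0 to 1 higher in brain.

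Metabolic genes were grouped in 4 lists. Of 28 tested genes of fatty acid oxidation and peroxisomes, 25 were higher in kidney and 0 higher in brain (median 2.57), and 19 of the 28 were detected on all 4 brain arrays. Acadm, the medium chain dehydrogenase, had 12.49, 12.64, 12.57 and 12.54 in kidney and 8.77, 8.84, 8.90 and 8.77 in brain, 13.4-fold. The peroxisomal thiolase gene Acaa1b (63.4-fold, detected on 3 of 4 brain arrays), Cpt2 of the carnitine shuttle (16.5-fold), the catalase gene Cat (14.6-fold) and the electron carrier gene Etfb (12.8-fold) were higher in kidney. Hadhb (8.65 ± 0.20 in kidney, 7.87 ± 0.23 in brain, SD, n = 4 each) was not called at 0.78 log2 (adjusted p = 2.74e-05), since it fell short of 2-fold, and Hadh was dim in both organs.

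Of 9 tested genes of glucose production and fructose use, 8 were higher in kidney (median 3.50, 3.34 with the bounds, range 5 to 8 higher in kidney over the alternatives). Khk, which phosphorylates fructose, had 11.92, 12.06, 11.77 and 11.92 in kidney and 5.72, 5.93, 5.75 and 5.84 in brain, 69.1-fold. Fbp1 (at least 45.4-fold), the glucose-6-phosphatase gene G6pc (24.5-fold, detected on 3 of 4 brain arrays), the glucose carrier gene Slc2a2 (at least 10.1-fold) and the triokinase gene Tkfc (11.3-fold, detected on 1 of 4 brain arrays) were higher too. Pck1, the gatekeeper of gluconeogenesis, was at 4.61, 4.86, 4.91 and 4.76 in kidney and 4.29, 4.46, 4.50 and 4.28 in brain and was not called. Its single tested probe lay close to the detection limit in both organs.

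Amino acid genes showed 19 of 23 higher in kidney and 0 higher in brain (median 2.94). They included Bhmt2 (at least 55.5-fold), the kynurenine pathway gene Haao (at least 29.2-fold), the cystine carrier subunit gene Slc7a9 (at least 22.6-fold) and Prodh2 (at least 19.2-fold). Slc1a1, the glutamate carrier shared by tubule and neurons, was higher in kidney 2.46-fold, and Ddc, which makes dopamine in both organs, was higher in kidney 3.33-fold. Slc7a8 (0.81 log2) and Slc3a2 (0.08 log2) were not called.

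Of 31 tested genes of xenobiotic metabolism and transport, 19 were higher in kidney and 3 higher in brain (median 3.02, 2.86 with the bounds, range 1 to 3 higher in brain over the alternatives). Cyp2j11 (at least 91.4-fold) stood beside Cyp4b1, Cyp2e1, Cyp4a12a and Slc47a1 at the head of the list. The members higher in brain were Sult4a1, the thyroid hormone transporter gene of the blood-brain barrier Slco1c1 (at least 4.17-fold) and the glutathione transferase gene Gsta4 (2.03-fold). Gsta2 (0.87 log2) and Cyp4a14 (0.51 log2) were not called.

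Endocrine genes of the kidney gave 9 of 13 tested higher in kidney (median 2.18, 2.00 with the bounds). The vitamin D receptor gene Vdr had 9.42, 9.13, 9.14 and 9.14 in kidney and 4.50, 4.39, 4.54 and 4.50 in brain, 26.4-fold, detected on 2 of 4 brain arrays. The parathyroid hormone receptor gene Pth1r (24.0-fold, detected on 3 of 4 brain arrays) and the angiotensin receptor gene Agtr1a (14.4-fold, detected on 1 of 4 brain arrays) were higher in kidney, while Fgfr1 (−0.0007 log2) and the phosphate carrier gene Slc20a2 (−0.37 log2) were not called.

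Epithelial junction genes gave 15 of 24 higher in kidney and 1 higher in brain (median 1.39, 1.19 with the bounds, range 7 to 16 higher in kidney over the alternatives). Cdh16, the kidney-specific cadherin, had 11.66, 11.60, 11.59 and 11.60 in kidney and 4.33, 4.24, 4.52 and 4.29 in brain, 154-fold, detected on 1 of 4 brain arrays. Cldn2, which forms the leaky cation pore of the proximal tubule, was higher in kidney 58.9-fold, detected on 2 of 4 brain arrays, and Cldn10 2.82-fold. The 4 tested probes of Cldn10 differed by −0.07 to 5.21 log2. The member higher in brain was Cldn11, at 5.12, 6.07, 5.43 and 5.19 in kidney and 11.82, 11.89, 11.95 and 11.94 in brain, the claudin that seals the layers of myelin. Cldn15 (0.71 log2) and Cldn12 (0.40 log2) were not called.

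Transcription factors that pattern the nephron and the trunk followed the same direction. Of 14 tested nephron factors, 10 were higher in kidney and 0 higher in brain (median 1.22, 1.20 with the bounds, range 4 to 10 higher in kidney over the alternatives), led by the bile acid receptor gene Nr1h4 (at least 70.5-fold), Hnf4a (32.5-fold, detected on 2 of 4 brain arrays), Osr2 (at least 7.02-fold), Esrrb (4.65-fold) and Tfap2b (2.94-fold), while Irx2 (0.87 log2) and Irx1 (0.62 log2) were not called. Of 35 listed Hox genes, which fix position along the body axis, 20 were tested, 13 were higher in kidney and 0 higher in brain (median 2.03, 1.93 with the bounds, range 7 to 13 higher in kidney over the alternatives). Hoxb7 had 8.32, 7.98, 8.06 and 7.85 in kidney, against 4.31, 4.34, 4.30 and 4.30 in brain, where no array detected it. Hoxa7 (17.6-fold, detected on 1 of 4 brain arrays), Hoxd8 (at least 11.5-fold), Hoxd10 (at least 10.7-fold) and Hoxc6 (11.8-fold, detected on 2 of 4 brain arrays) were the other leading members. Hoxa4 (0.50 log2) and Hoxa13 (0.25 log2) were detected on all 8 arrays and not called.

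Promoter windows of 250 bases before to 50 bases after the start of RefSeq genes (GRCm38.p6) were searched on both strands for the TATA box and for 4 short motifs that textbook knowledge ties to liver and kidney factors or to neuronal regulation. The 4 motifs were a core of the HNF1 element (GTTAATNAT), a core of the HNF4 element (CAAAGTCCA), the palindromic cyclic AMP response element (TGACGTCA) and the left part of RE1, the element bound by the neuronal gene repressor REST (TTCAGCACC). There were 1692 windows of genes higher in kidney, 1979 of genes higher in brain, 6748 of genes tested and not called, and 32851 in all. The HNF1 core was in 1.54% of kidney and 0.303% of brain windows, against 0.311% of windows of genes not called and 0.801% of all. The HNF4 core was in 1.0% of kidney and 0.202% of brain windows, against 0.341% of windows of genes not called and 0.475% of all. The cyclic AMP element was in 1.89% of kidney and 2.63% of brain windows, against 3.16% of windows of genes not called and 1.79% of all. The part of RE1 was in 0.0591% of kidney and 0.707% of brain windows, against 0.415% of windows of genes not called and 0.371% of all. The TATA box (TATAAA) was in 9.75% of kidney and 7.98% of brain windows, against 7.22% of windows of genes not called and 13.6% of all. These shares rest on few windows, 26 kidney and 6 brain windows for HNF1, 17 kidney and 4 brain windows for HNF4, 32 kidney and 52 brain windows for the cyclic AMP element, and 1 kidney and 14 brain windows for the part of RE1. They are a description, with no test, and the sets differ in base composition. The median was 15 CpG in kidney windows, 18 in brain windows, 20 in windows of genes not called and 7 in all windows.

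Promoters of 4 of the genes described here are shown, chosen after the search because they hold a match, to let the motif be read in place. Capitals mark the matches of the 4 motifs, all on GRCm38.p6 and written 5′ to 3′ on the gene's own strand. Cltrn (chrX:164089937-164090236, plus strand) holds the HNF1 core at bases −54 to −46 counted from its start (base 0), and Nat8 (chr6:85832230-85832529, minus strand) the HNF4 core, in reverse, at bases 2 to 10.
Cltrn: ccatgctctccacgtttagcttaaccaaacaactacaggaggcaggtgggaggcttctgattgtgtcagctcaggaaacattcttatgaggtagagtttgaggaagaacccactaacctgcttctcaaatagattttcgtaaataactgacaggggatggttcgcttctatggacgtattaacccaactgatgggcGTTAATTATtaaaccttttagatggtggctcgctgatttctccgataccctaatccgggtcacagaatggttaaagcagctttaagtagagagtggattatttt
Nat8: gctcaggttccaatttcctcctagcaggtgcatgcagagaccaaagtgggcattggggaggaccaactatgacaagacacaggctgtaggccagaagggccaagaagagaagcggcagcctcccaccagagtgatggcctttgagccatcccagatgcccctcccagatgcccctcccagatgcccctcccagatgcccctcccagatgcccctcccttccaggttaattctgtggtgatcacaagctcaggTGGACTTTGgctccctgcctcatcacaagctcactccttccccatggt
Syn1 (chrX:20920869-20921168, minus strand) and the secretogranin gene Scg2 (chr1:79439977-79440276, minus strand) hold both the cyclic AMP element, at bases −159 to −152 in Syn1 and −68 to −61 in Scg2, and the part of RE1, at bases −232 to −224 in Syn1 and, in reverse, at −7 to 1 in Scg2.
Syn1: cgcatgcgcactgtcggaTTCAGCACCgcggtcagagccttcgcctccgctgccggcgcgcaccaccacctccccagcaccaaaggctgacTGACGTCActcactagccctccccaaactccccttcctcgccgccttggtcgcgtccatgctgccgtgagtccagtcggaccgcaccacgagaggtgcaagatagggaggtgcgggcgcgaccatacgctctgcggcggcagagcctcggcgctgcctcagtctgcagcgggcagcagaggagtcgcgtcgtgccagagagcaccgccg
Scg2: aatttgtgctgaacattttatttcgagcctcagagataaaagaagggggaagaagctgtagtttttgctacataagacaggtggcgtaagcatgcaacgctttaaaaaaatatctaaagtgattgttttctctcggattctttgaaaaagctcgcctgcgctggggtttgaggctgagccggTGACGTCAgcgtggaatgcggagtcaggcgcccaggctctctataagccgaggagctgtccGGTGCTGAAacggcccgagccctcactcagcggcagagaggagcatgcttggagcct
A match is a string of letters and not evidence that a factor binds there. No matches of different motifs overlapped in these 4 windows. Cltrn and Nat8 were higher in kidney (at least 186-fold and 78.1-fold), and Syn1 and Scg2 higher in brain (at least 99.1-fold and at least 38.4-fold).

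Of 27 tested general neuronal genes, 0 were higher in kidney and 26 higher in brain (median −4.91, −4.64 with the bounds), and 15 were detected on no kidney array. Eno2, the neuronal enolase, had 4.48, 4.79, 5.03 and 4.84 in kidney, against 12.49, 12.50, 12.49 and 12.47 in brain, 209-fold, detected on 3 of 4 kidney arrays. Rbfox3, the splicing factor known as the NeuN antigen, had 4.37, 4.32, 4.83 and 4.52 in kidney, against 11.22, 11.10, 11.24 and 11.18 in brain, 102-fold, detected on 1 of 4 kidney arrays. The 4 brain values of each gene lay close together. Basp1 (4.23 ± 0.03 in kidney, 4.65 ± 0.10 in brain, SD, n = 4 each), a growth cone protein gene, was the member not called, and its values were dim.

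The machinery of transmitter release gave 5 genes higher in kidney and 23 higher in brain among 31 tested (median −3.63). Besides Cplx1, Syn1, Syp and Syt11, the calcium sensor gene Syt4 (at least 70.3-fold) led the brain side. The members higher in kidney were the general membrane fusion genes Stx3 (10.6-fold), Vamp8 (10.1-fold), Snap23 (6.14-fold) and Stxbp2 (3.12-fold) and the synaptophysin-like gene Sypl (5.41-fold), which are known in epithelia and other secretory cells. Vamp8 had 8.24, 7.89, 8.25 and 8.08 in kidney and 4.94, 4.76, 4.65 and 4.74 in brain, and Snap23 had 8.75, 8.73, 8.61 and 8.31 in kidney and 5.89, 6.05, 5.98 and 6.00 in brain. All 8 arrays detected both genes, and the kidney values were higher in every mouse. Vamp3 (0.58 log2) and Syn3 (0.24 log2) were not called.

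Among 27 tested genes of glutamate signalling, 1 was higher in kidney and 14 were higher in brain (median −1.01, −0.98 with the bounds). Over the alternatives, 0 to 1 of them were higher in kidney and 8 to 16 higher in brain. Slc17a7, the vesicular glutamate transporter of cortex, had 4.43, 4.42, 4.51 and 4.67 in kidney and 9.63, 9.80, 9.58 and 9.77 in brain, and its subcortical relative Slc17a6 was higher in brain at least 69.2-fold. The AMPA receptor subunit genes Gria2 (53.4-fold, detected on 2 of 4 kidney arrays) and Gria1 (at least 17.7-fold) were higher in brain, while Gria3 (0.21 log2) and Gria4 (−0.49 log2) were not called. Slc1a1, described above, was the member higher in kidney.

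Among 18 tested genes of inhibitory signalling, 1 was higher in kidney and 10 were higher in brain (median −1.43, −1.29 with the bounds, range 6 to 12 higher in brain over the alternatives). Slc32a1, which fills vesicles with GABA and glycine, had 4.29, 4.24, 4.38 and 4.34 in kidney and 10.97, 10.87, 10.61 and 10.90 in brain, and Gad1, which makes GABA, was higher in brain at least 37.3-fold. Gabrd (at least 8.15-fold), Gabrb1 (at least 7.31-fold) and Gabbr1 (at least 5.65-fold), all receptor subunits, followed. The member higher in kidney was Slc6a13, a GABA and taurine carrier known in kidney, liver and meninges, with 9.19, 9.28, 9.41 and 9.56 in kidney and 6.89, 6.84, 6.90 and 7.17 in brain. The GABA-degrading enzyme gene Abat (8.73 ± 0.09 in kidney, 8.91 ± 0.10 in brain, SD, n = 4 each) and Slc6a9 (−0.96 log2) were not called.

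Of 22 tested monoamine and cholinergic genes, 2 were higher in kidney and 10 higher in brain (median −0.75, −0.69 with the bounds, range 2 to 13 higher in brain over the alternatives). Pdyn, the opioid precursor, led with at least 14.8-fold in favour of brain, and the dopamine transporter gene Slc6a3 was higher in brain at least 3.64-fold. Th (−0.61 log2) and Slc6a2 (−0.32 log2) were not called. The members higher in kidney were Ddc and Chrna4, a nicotinic receptor subunit gene known from brain, at 8.48, 8.19, 8.49 and 8.27 in kidney and 6.42, 6.17, 6.29 and 6.13 in brain, 4.31-fold. Every kidney value of Chrna4 lay above every brain value, while a second probe of the gene differed by 0.13 log2.

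Peptide genes gave 0 higher in kidney and 19 higher in brain among 24 tested (median −2.87, −2.47 with the bounds). Sst, which encodes somatostatin, was higher in brain at least 29.4-fold, Cck 25.9-fold, the melanin-concentrating hormone gene Pmch at least 18.2-fold and the receptor gene Cckbr at least 16.5-fold. Hcrt (−0.89 log2) and Gal (−0.44 log2), made by few hypothalamic neurons, were detected on all 4 brain arrays and not called. Of 30 tested voltage-gated channel genes, 0 were higher in kidney and 22 higher in brain (median −2.16, −1.94 with the bounds, range 14 to 28 higher in brain over the alternatives), led by Kcnab2, Kcnab1 (22.2-fold, detected on 3 of 4 kidney arrays), Kcnc1 of fast-spiking cells (at least 16.2-fold), Scn2b (at least 13.8-fold) and the pacemaker channel gene Hcn2 (17.9-fold, detected on 2 of 4 kidney arrays). Kcna1 (−0.85 log2) and Kcna6 (−0.63 log2) were not called.

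Genes of brain regions gave 0 higher in kidney and 15 higher in brain among 23 tested (median −2.06, −1.81 with the bounds), and they spanned several regions. Cbln1 of cerebellar granule cells had 4.42, 4.52, 4.71 and 4.32 in kidney and 10.98, 10.95, 10.87 and 10.91 in brain, and Calb2 (at least 54.8-fold), Pcp2 of Purkinje cells (at least 16.0-fold), Rgs9 of the striatum (27.4-fold, detected on 1 of 4 kidney arrays) and Hap1 of hypothalamus and brainstem (−4.86 log2) were higher in brain. The least different probe of Hap1 gave −0.26 log2. Foxp2 (−0.41 log2) and Neurod1 (−0.70 log2) were not called.

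Astrocyte genes gave 2 higher in kidney and 14 higher in brain among 22 tested (median −2.40, −2.17 with the bounds). Aldoc had 5.32, 5.26, 5.58 and 5.43 in kidney and 11.44, 11.32, 11.56 and 11.39 in brain, and Ntsr2 (at least 29.5-fold), the gap junction gene Gja1 (26.4-fold) and the sodium pump subunit gene Atp1b2 (23.7-fold) were higher in brain. The members higher in kidney were Cldn10 and Aldh1l1, a folate enzyme gene widely used to mark astrocytes, at 9.45, 9.55, 9.34 and 9.62 in kidney and 6.28, 6.42, 6.21 and 6.36 in brain, 9.01-fold. Gfap, the filament gene of astrocytes, was dim at 4.19, 4.53, 4.37 and 4.29 in kidney and 5.26, 5.24, 5.24 and 5.42 in brain and was not called.

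Of 22 tested oligodendrocyte genes, 2 were higher in kidney and 12 higher in brain (median −1.51, −1.33 with the bounds). Mbp, the myelin basic protein gene, had 4.33, 4.81, 4.69 and 4.89 in kidney, against 12.98, 12.98, 13.13 and 12.99 in brain, 324-fold, detected on 3 of 4 kidney arrays. Olig1 (at least 59.4-fold), Mag (at least 49.8-fold) and Plekhb1 (50.9-fold) were higher in brain. Ugt8a, which makes the galactolipids of myelin and of kidney, had 10.40, 10.49, 10.50 and 10.45 in kidney and 8.62, 8.86, 8.78 and 8.72 in brain, higher in kidney 3.28-fold. Aspg was the other member higher in kidney (6.61-fold), while Mal (6.89 ± 0.35 in kidney, 6.82 ± 0.14 in brain), a raft protein gene of myelin and of tubule cells, and the sulfatide enzyme gene Gal3st1 (7.00 ± 0.05 in kidney, 6.53 ± 0.10 in brain; SD, n = 4 each) were not called. Of 8 tested precursor genes, 4 were higher in brain, among them Cspg5 (at least 14.0-fold), Bcan (at least 11.9-fold) and Gpr17 (at least 2.92-fold), and Pdgfra (−0.68 log2) and Cspg4 (0.06 log2) were not called.

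**Figure D3:**
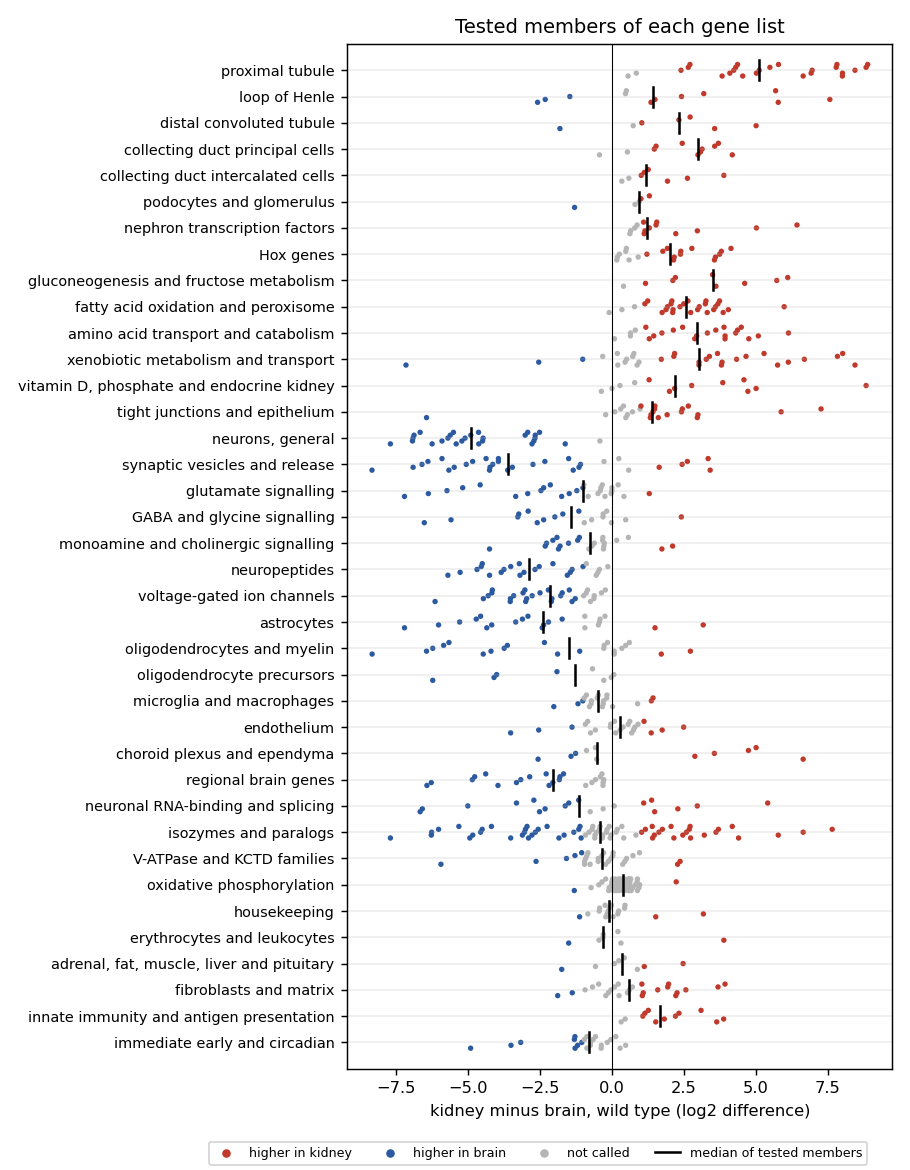
Kidney minus brain log2 difference of the tested members of each gene list (horizontal axis), 1 point per gene, red where called higher in kidney, blue where called higher in brain and grey where not called, with a bar at the median. Nephron and metabolic lists lie to the right with medians of up to 5.12, neuronal and glial lists to the left with medians down to −4.91, and the respiratory chain lies close to 0.

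Related genes often took opposite sides. Among RNA-binding proteins, 6 of 19 tested were higher in kidney and 10 higher in brain (median −1.16, range 3 to 6 higher in kidney over the alternatives). On the brain side were Rbfox3, Rbfox1 (96.6-fold, detected on 1 of 4 kidney arrays), Elavl2 (at least 25.7-fold) and Celf2 (10.0-fold), regulators of neuronal splicing and message stability. On the kidney side were the epithelial factors Esrp1 (at least 6.76-fold), Esrp2 (at least 2.44-fold) and Rbm47 (42.6-fold), and the widely expressed family members Ptbp1 (4.89-fold), Elavl1 (2.60-fold) and Celf1 (2.15-fold). Ptbp1, which represses neuronal exons, had 8.98, 8.87, 9.00 and 8.78 in kidney and 6.53, 6.74, 6.56 and 6.65 in brain, with every kidney value above every brain value. Further probes differed by 0.49 log2 for Ptbp1 and by −0.56 log2 for Rbfox1, neither of them called. Further probes went the other way for Celf1 (−0.38 log2) and Cldn10 (−0.07 log2), also not called. Nova2 (0.08 log2) and Mbnl1 (−0.31 log2) were not called.

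Of 69 tested genes from families of isozymes and paralogs, 22 were higher in kidney and 26 higher in brain. Of 13 tested genes of glycolysis, 2 were higher in kidney and 8 higher in brain. Ldha (2.64-fold) and Pgam2 (6.01-fold) were higher in kidney. Eno2, Aldoc, the phosphofructokinase genes Pfkm (7.48-fold), Pfkp (3.59-fold) and Pfkl (2.16-fold), the pyruvate kinase gene Pkm (5.92-fold) and the hexokinase genes Hk2 (2.23-fold) and Hk1 (2.11-fold, detected on 2 of 4 kidney arrays) were higher in brain, and the muscle enolase gene Eno3 (−0.10 log2) was not called. A further probe of Pfkp differed by −0.19 log2. Aldoa, the aldolase of most tissues, had 8.97, 8.92, 8.72 and 8.94 in kidney and 9.58, 9.29, 9.34 and 9.73 in brain and was not called. Of 9 tested carbonic anhydrase genes, 6 were higher in kidney and 1 higher in brain. Those higher in kidney were Car12 (21.1-fold), Car14 (9.24-fold), Car15 (6.64-fold), the mitochondrial Car5b (6.44-fold, detected on 1 of 4 brain arrays), Car4 (4.15-fold) and Car3 (at least 2.04-fold), and the one higher in brain was Car11 (18.3-fold). Car2, which both organs use, had 8.35, 8.07, 8.00 and 8.00 in kidney and 7.89, 7.75, 7.77 and 7.64 in brain and was not called. Of 6 tested aquaporin genes, 5 were higher in kidney, Aqp1, Aqp2, Aqp3, Aqp7 (at least 3.72-fold) and Aqp11 (3.37-fold). The potassium and chloride carrier gene Slc12a7 (at least 4.59-fold), S100a1 (3.10-fold), S100a10 (2.66-fold) and the tubulin gene Tubb6 (2.04-fold, detected on 2 of 4 brain arrays) were higher in kidney, while the other 6 of 7 tested tubulin genes were higher in brain, led by Tubb4a (at least 57.3-fold).

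**Figure D4:**
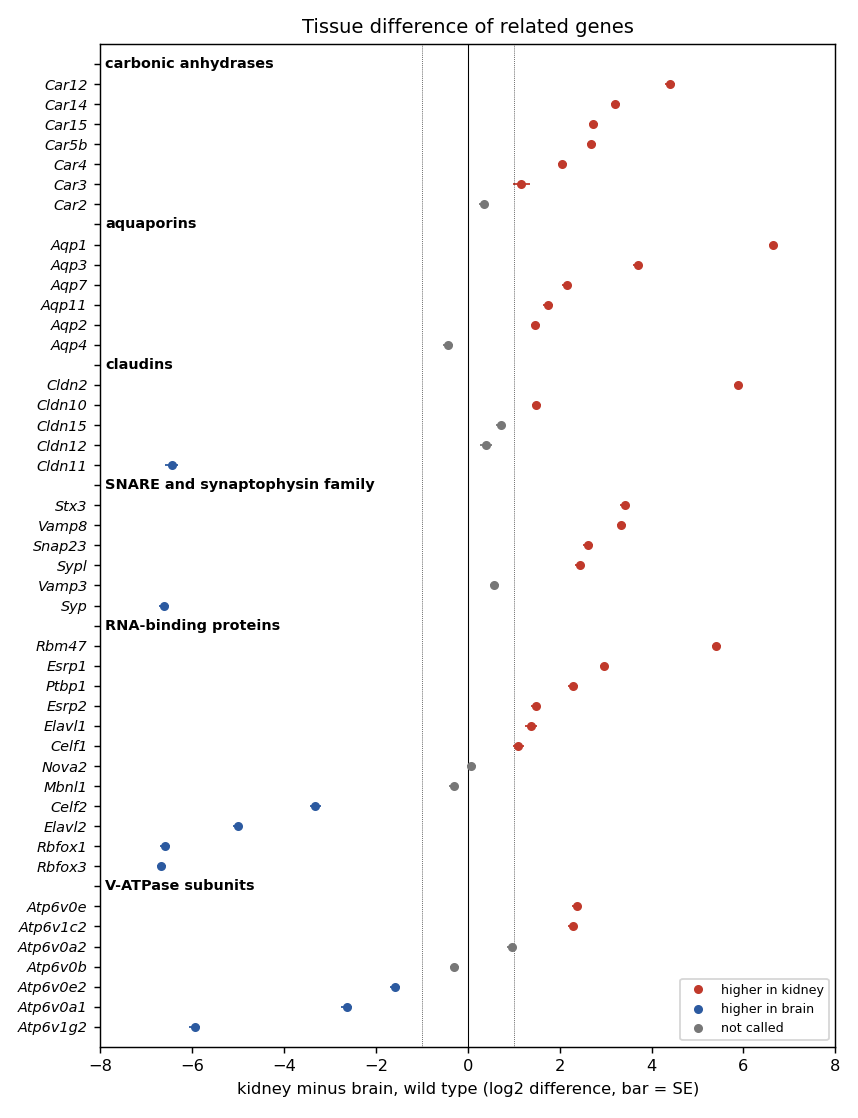
Kidney minus brain log2 difference (horizontal axis, bar = SE of the fit over 4 mice) of related genes in 6 groups, red where called higher in kidney, blue where called higher in brain and grey where not called, with dotted lines at 2-fold. All groups but the carbonic anhydrases hold drawn members on both sides of 0, the aquaporins through Aqp4 (−0.44 log2, not called). The tested carbonic anhydrase genes Car11 (−4.19 log2, called higher in brain) and Car7 (−0.33 log2, not called) are not drawn.

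The vacuolar proton pump acidifies vesicles in both organs and secretes acid in the collecting duct. Together with the KCTD family, of which Kctd1 is a member, 27 genes were tested, 2 were higher in kidney and 5 higher in brain (median −0.35, range 3 to 12 higher in brain over the alternatives). The brain count lay near its share over all genes tested and the kidney count below its own. The kidney-side subunit genes were Atp6v1c2 (4.86-fold) and Atp6v0e (5.16-fold), and the brain side held other subunit genes, Atp6v0e2 (3.0-fold), Atp6v0a1 (6.24-fold) and Atp6v1g2, the last at 5.33, 6.03, 5.77 and 5.59 in kidney and 11.67, 11.66, 11.53 and 11.67 in brain. Atp6v0a2 (0.95 log2) and Atp6v0b (−0.29 log2) were not called.

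Most genes shared by all cells were not called. Of 54 tested genes of oxidative phosphorylation, 1 was higher in kidney, 1 higher in brain and 52 were not called (median 0.37, and 0.21 with the array medians aligned). Over the alternatives, 1 to 2 of them were higher in kidney and 0 to 2 higher in brain. The called members were both isoforms of cytochrome oxidase known from heart and muscle, Cox7a1 (4.70-fold higher in kidney) and Cox6a2 (2.48-fold higher in brain). Of 17 tested housekeeping genes, 14 were not called, 2 were higher in kidney and 1 was higher in brain. The count higher in brain ranged from 1 to 2 over the alternatives. Gapdh had 12.28, 12.36, 12.41 and 12.57 in kidney and 12.71, 12.54, 12.71 and 12.61 in brain, a difference of −0.24 ± 0.10 (SE, adjusted p = 0.0454), below 2-fold. The lysosomal enzyme gene Gusb was higher in kidney (9.04-fold), as was B2m (2.87-fold), and Ywhaz was higher in brain (2.18-fold). Actb has 5 tested probes, whose differences ranged from −1.07 to 1.84, and its brightest probe was not called (−0.22 log2).

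Genes of antigen presentation were mostly higher in kidney, and those of microglia and of endothelium mostly not called. Of 12 tested genes of innate immunity and antigen presentation, 10 were higher in kidney and 0 higher in brain (median 1.67, range 6 to 10 higher in kidney over the alternatives). Cd74, the chain that escorts class II molecules, had 8.98, 8.82, 8.71 and 8.54 in kidney and 4.82, 4.66, 5.02 and 5.02 in brain, 14.7-fold. H2-Eb1 (12.5-fold, detected on 1 of 4 brain arrays), H2-Ab1 (at least 7.96-fold), H2-T23 (5.02-fold) and the complement factor gene Cfb (at least 3.93-fold) were higher in kidney, and Psmb8 (0.46 log2) and Isg15 (0.32 log2) were not called. Of 19 tested genes of microglia and macrophages, 2 were higher in kidney, 3 higher in brain and 14 not called (median −0.47, range 0 to 8 higher in brain over the alternatives). Neither count was above its share over all genes tested. The counts were 0 higher in kidney and 7 higher in brain with array medians aligned, and 0 and 0 without background correction. The microglial receptor genes P2ry13 (4.07-fold, detected on 1 of 4 kidney arrays) and Cx3cr1 (at least 1.87-fold) and the leukocyte ligand gene Selplg (2.02-fold) were higher in brain, while the lysozyme genes Lyz2 (2.69-fold) and Lyz1 (2.58-fold), which are near-identical and may share signal, were higher in kidney.

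Of 23 tested endothelial genes, 4 were higher in kidney, 3 higher in brain and 16 not called, near the shares over all genes tested. The counts became 2 against 7 with the array medians aligned, and the larger side turned under 3 alternatives in all. Their ranges over the alternatives were 2 to 5 higher in kidney and 1 to 7 higher in brain. Emcn (5.62-fold), Eng (3.35-fold) and Plvap, the diaphragm protein gene of fenestrated vessels (2.57-fold), were higher in kidney, and Itm2a (11.5-fold, detected on 1 of 4 kidney arrays), Slco1c1 and Vwf (at least 2.22-fold) higher in brain. The pan-endothelial genes Pecam1 (0.91 log2) and Cdh5 (0.56 log2) were not called. Matrix genes gave 11 higher in kidney and 2 higher in brain among 25 tested (median 0.60, range 7 to 11 higher in kidney and 1 to 5 higher in brain over the alternatives). The type IV collagen genes of the glomerular basement membrane, Col4a3 (at least 11.3-fold), Col4a4 (at least 13.5-fold) and Col4a5 (4.79-fold, detected on 1 of 4 brain arrays), were higher in kidney, as were Col4a1 (5.93-fold) and Lama1 (4.65-fold). Sparcl1 (at least 3.27-fold) and Sparc (2.61-fold) were higher in brain, and the fibrillar collagen genes Col1a1 (0.09 log2) and Col1a2 (−0.04 log2) were not called.

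Genes of the choroid plexus and ependyma, which line the ventricles, were split, with 5 higher in kidney and 3 higher in brain among 11 tested (range 0 to 4 higher in brain over the alternatives). Aqp1, Kl, the folate receptor gene Folr1 (26.8-fold, detected on 1 of 4 brain arrays), Calml4 (11.8-fold, detected on 1 of 4 brain arrays) and Rarres2 (7.37-fold), which kidney epithelium also uses, were higher in kidney. Clic6 (at least 4.74-fold), 1110017D15Rik (at least 2.48-fold) and Otx2 (at least 1.80-fold) were higher in brain. Ttr, the transthyretin gene of choroid plexus and liver, had 11.42, 11.27, 11.22 and 11.12 in kidney and 12.24, 11.79, 12.00 and 11.30 in brain and was not called. The brain values of Ttr spread more widely than those of kidney, and the lowest of them, in mouse 4, fell within the kidney range. Dynlrb2 (−0.89 log2), of motile cilia, was not called.

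Genes switched on by stimulation or by the clock gave 0 higher in kidney and 8 higher in brain among 22 tested (median −0.81, range 3 to 16 higher in brain over the alternatives). Egr1 had 5.97, 6.31, 5.97 and 5.72 in kidney and 11.10, 10.98, 10.98 and 10.57 in brain, 30.2-fold. Arc (at least 9.59-fold), Fos (at least 6.92-fold) and Junb (2.44-fold), all induced by neuronal activity, and the clock gene Arntl (2.48-fold, detected on 2 of 4 kidney arrays) were higher in brain, while Jun (−0.75 log2) and Fosb (−0.75 log2) were not called.

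Markers of cells that dissection or blood could bring along were set out beside these results. Of 26 blood cell genes 7 were tested, and their summed linear intensity was 8346 to 10611 per kidney array and 9788 to 12155 per brain array. The globin gene Hba-a1 had 13.29, 13.13, 13.01 and 12.92 in kidney and 13.21, 13.53, 13.53 and 13.32 in brain, and Hbb-b2 (−0.30 log2) was not called either. Slc4a1, shared with intercalated cells, was higher in kidney, and the neutrophil gene S100a8 was higher in brain (2.84-fold, detected on 2 of 4 kidney arrays). Of 32 genes of adrenal, fat, muscle, liver and pituitary, 8 were tested, with a summed intensity of 2517 to 3037 in kidney and 2725 to 5050 in brain, and Ttr held most of it in both organs (86.4 to 90.0% in kidney, 92.2 to 96.0% in brain). Fga (at least 4.72-fold) and Serpina1a (2.18-fold) were higher in kidney and the muscle actin gene Acta1 was higher in brain (at least 2.46-fold). Lep (0.43 log2) and Cyp11b2 (0.24 log2) were dim and not called. The part of such cells in the results was not tested. The Y-linked gene Eif2s3y was detected on all 8 arrays, at 6.31, 6.21, 6.11 and 6.20 in kidney and 6.47, 6.13, 6.53 and 6.29 in brain, and the labels used here give no sex.

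Calls of dim genes and of differences close to 2-fold depended on the processing. Without background correction, the calls of 46 of the 317 genes with values given here ended, all with their sign kept, among them Aqp2 (0.46 log2), Wt1 (0.41 log2), Rhcg (0.38 log2), Foxi1 (0.37 log2), Podxl (0.31 log2), Otx2 (−0.39 log2), Vwf (−0.43 log2), Cx3cr1 (−0.36 log2), Arntl (−0.45 log2), Car3 (0.37 log2) and Cox6a2 (−0.49 log2). With an offset of 50 the calls of 28 genes ended, with array medians aligned those of 11, without scaling between arrays those of 15 and with the submitters' value table those of 10. The calls that ended with array medians aligned included Plvap (0.92 log2), Lyz2 (0.93 log2), Lyz1 (0.89 log2), Elavl1 (0.85 log2), Celf1 (0.62 log2), S100a10 (0.95 log2) and Serpina1a (0.80 log2). Other genes given above as not called were called with array medians aligned (8 genes), without scaling (13) or with the value table (12), all higher in brain. With array medians aligned these were Slc6a9 (−1.41 log2), Ciart (−1.40 log2), Jun (−1.29 log2), Pdgfra (−1.22 log2), Gfap (−1.15 log2), Dynlrb2 (−1.07 log2), Hcrt (−1.04 log2) and Kcna1 (−1.0 log2). Leaving out 1 mouse ended the calls of Celf1 (0.96 log2) and Tubb6 (0.99 log2, both without mouse 1), of Car3 (0.86 log2), Gsta4 (−0.93 log2) and Hk1 (−1.0 log2, all without mouse 2), and of Foxi1 (0.99 log2), Podxl (0.84 log2), Selplg (−0.96 log2) and Hk1 (−0.93 log2, all without mouse 4). It added calls of Gfap (−1.04 log2, without mouse 2) and of Atp6v0a2 (1.01 log2), Gsta2 (1.00 log2), Slc22a8 (1.08 log2) and Slc6a9 (−1.01 log2, all without mouse 4).

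The design also asks whether single mice stood apart in both organs. A term for the mouse, which a gene passes when kidney and brain of a mouse deviate together, was passed by 0 of 14163 probes (0.0% of probes tested) at an adjusted p under 0.05 in limma, and 808 probes (5.71%) had an unadjusted p under 0.05. The smallest adjusted p was 0.393, for Gripap1, whose protein traffics receptors in endosomes. Gripap1 had 6.52, 7.31, 7.25 and 7.54 in kidney, against 7.14, 8.79, 8.80 and 8.70 in brain, and mouse 1 had the lowest value in both organs. Glud1, glutamate dehydrogenase, had 8.39, 7.50, 7.82 and 7.41 in kidney and 7.94, 7.23, 7.15 and 7.08 in brain, with mouse 1 the highest in both. The clock-controlled gene Ciart had 5.20, 5.47, 5.72 and 6.12 in kidney and 6.12, 6.39, 6.76 and 6.72 in brain. These are the genes of smallest p among those that did not pass, and their order is not a result.

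The tissue difference was measured again in the heterozygous mice, on 8 other arrays normalized on their own. Of the probes called in wild type, 2126 of 2261 higher in kidney and 2219 of 2339 higher in brain were called in the same direction in heterozygous mice, where 4626 probes were called (32.7%, against 32.5% in wild type). All 4600 called probes kept the sign of their difference. Miox differed by 7.91 log2 in heterozygous mice, Slc34a1 by 8.88, Umod by 7.59, Slc1a3 by −7.48, Eno2 by −7.74 and Mbp by −8.41. A test of the difference of the tissue differences between the genotypes was passed by 13 probes (0.0918% of probes tested), and 991 had an unadjusted p under 0.05. These probes included those of Pvalb and Rasgrp1, named above, for which heterozygous kidney lay farther below heterozygous brain than wild type kidney below wild type brain.

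**Figure D5:**
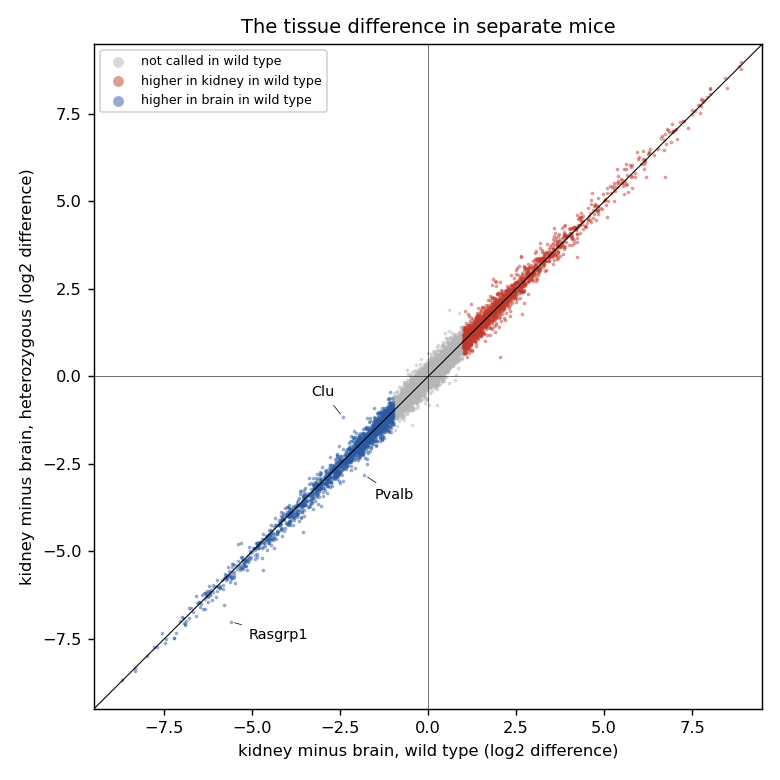
Kidney minus brain log2 difference in 4 heterozygous mice (vertical axis) against that in 4 wild type mice (horizontal axis) for each of 9885 tested genes, coloured by the wild type call, with the line of equal values. The points follow the line, all called genes keep their sign, and Pvalb, Rasgrp1 and Clu, whose difference depended on the genotype, lie off it.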

How the data were processed

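Total RNA from kidney and brain was labelled with biotin and hybridised to 1-colour Illumina mouse bead arrays. Per the file headers, the deposited values are an unnormalized intensity per probe and array and its detection p-value, for 25697 probes. The submitters' processing notes name GenomeStudio 2011.1, and further steps before deposit are not stated there. The authors' deposited value table of the same arrays holds a processed intensity, with centring and steps not stated, and it served as an alternative.

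The 8 wild type arrays were corrected and quantile-normalized together with neqc (limma 3.58.1, R 4.3.3), using the detection p-values and an offset of 16, on the log2 scale. Folds of dim probes depend on this offset. Probes detected (p under 0.05) on at least 2 of 4 arrays of either organ were fitted with tissue and mouse as terms (lmFit, eBayes), with Benjamini-Hochberg adjustment over all probes tested. The labels give the same mouse identifier to a kidney and a brain array, so the arrays are paired by animal, and deviations of the same mouse correlated at −0.0088 to 0.136 over probes. The p-values reflect variation among mice and among arrays. Probe names came from the platform annotation, updated to RefSeq symbols: 23978 probes had 1 gene, 0 several and 1719 were not listed. Promoter sequences are from RefSeq (GRCm38.p6).

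Named genes were, by rule, the 15 per direction with the largest difference among genes detected on all arrays of both organs without overlap, the 15 per direction with the highest bound among genes detected in 1 organ, up to 5 leading called genes per list, all called against the majority of the list and up to 2 not called, and the genes of smallest p for the mouse term. Promoters shown, the symbol families, Car11 and the 6 glycolysis genes Pkm, Pfkl, Pfkm, Pfkp, Hk1 and Hk2 were chosen after the values were seen. The members and the gene lists were chosen with earlier results of these data known. The fit was tested on simulated data. Alternatives covered background correction, offset, scaling, detection filter, spread, array weights, the replicate block, thresholds, the deposited value table, further probes of a gene, and leaving out each mouse. Heart entered as detection on 4 wild type arrays and in the alternative that normalized all 24 arrays together.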

Additional observations from a re-analysis of the deposited data

Results flagged for a closer look

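Of 634 sets of 4 values examined, 1 organ of 1 named gene each, 36 (5.68%) held a mouse set apart from the other 3, and chance alone gives such a flag in about 1 in 20 sets. Given here are the log2 value of the mouse that stood apart and the median of all 4. In kidney these were 1110017D15Rik (4.48 against 4.59), Acsm3 (11.73 against 12.11), Acta1 (4.35 against 4.19), Bsnd (7.61 against 7.40), Car14 (9.58 against 9.30), Cfb (6.20 against 6.54), Cyp2e1 (12.52 against 12.27), Eno3 (5.71 against 5.02), Folr1 (9.30 against 9.09), Kcnab1 (4.37 against 4.86), Nat8 (11.75 against 11.37), Pecam1 (6.65 against 6.32), Rims3 (4.63 against 4.99), Vdr (9.42 against 9.14) and Wnk4 (7.06 against 6.47). In brain they were Arpp21 (12.08 against 11.85), Aspdh (4.81 against 4.94), Atp6v1g2 (11.53 against 11.67), Cckbr (8.47 against 8.80), Clic6 (6.47 against 7.04), Eef1a2 (12.04 against 11.94), Esrp1 (4.18 against 4.31), Gfap (5.42 against 5.25), Gria1 (8.97 against 8.78), Gripap1 (7.14 against 8.74), Hoxb7 (4.34 against 4.30), Itm2a (7.99 against 8.17), Kap (4.77 against 4.28), Keg1 (4.62 against 4.26), Mbp (13.13 against 12.99), Nat8 (5.02 against 5.21), Scnn1a (4.56 against 4.38), Slc20a2 (7.12 against 7.48), Slc27a2 (5.42 against 5.22), Slc34a1 (4.67 against 4.28) and Tkfc (4.72 against 4.43). The distance was widest for Gripap1 in brain, whose value in mouse 1 was the low one. Slc34a1, Kap and Keg1 are genes of the proximal tubule, and the brain value that stood apart was the high one of mouse 1 for all 3. Among other proximal tubule genes with brain values given above, Hnf4a was also highest in mouse 1. Miox, Napsa and Slc22a6 were not.

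The test of the tissue difference between the genotypes was passed by 13 probes of 12 genes. The kidney minus brain difference was higher in heterozygous mice than in wild type mice for Defb2 (1.29 log2), Clu (1.27), Defb42 (0.94), Reep6 (0.79) and Cyb5a (0.78). It was lower in heterozygous mice for Sycn (−1.48), Rasgrp1 (−1.40), both probes of Wfdc15b (−1.07 and −0.87), Slc6a12 (−1.07), Pvalb (−1.02), Sfrp1 (−0.92) and Olfml2b (−0.89). Clu, a secreted chaperone gene, averaged 10.16 in heterozygous kidney and 8.94 in wild type kidney, and 11.32 in heterozygous brain and 11.37 in wild type brain, each genotype normalized on its own. Pvalb averaged 9.64 in heterozygous kidney and 10.68 in wild type kidney, and 12.46 in heterozygous brain and 12.49 in wild type brain. The number of probes that passed was 6 without wild type replicate 3 and 19 without wild type replicate 4.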

How the results depend on the processing

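Counts of probes called in wild type moved most with the background correction and the threshold. Against 4600 called, 2261 higher in kidney and 2339 higher in brain, there were 2246, 1115 and 1131 without background correction, 10411, 5178 and 5233 at any fold, and 2116, 1026 and 1090 at 4-fold or more. Probes higher in brain numbered 3906 with the submitters' value table and 4005 without scaling between arrays, where 1449 were higher in kidney. The share of calls higher in kidney was 49.2%, against 32.6% with array medians aligned (median of all probes −0.26), 26.6% without scaling (−0.43) and 29.2% with the value table (−0.43). An offset of 50 gave 3119 calls. No called probe turned its direction under these alternatives. The fit with no replicate block gave 4600, 2261 and 2339 in wild type and 4626 in heterozygous mice, so the pairing by mouse changed no count. Leaving out 1 mouse gave 4527 to 4633 calls in wild type. In heterozygous mice there were 4626 called, 2266 higher in kidney and 2360 higher in brain, and 2288, 1136 and 1152 without background correction. The mouse term was passed by 2 probes with a trended and robust spread and by 0 with the other alternatives. The difference between genotypes was passed by 6 to 19 probes with 1 mouse left out, against 13. Of 317 named genes, 239 kept their direction and their side of the threshold under all alternatives run. Other probes of Actb (1.84), Celf1 (−0.38), Cldn10 (−0.069), Mal (−0.47), Gria3 (−0.14) and Abat (0.053) had a sign opposite to the probe reported, and of these genes Celf1 and Cldn10 were called. For 16 called genes the least different tested probe kept the sign and fell short of a call. They were Hap1 (−0.26), Lyz2 (0.43), Foxi1 (0.44), Ppp1r1b (−0.47), H2-Ab1 (0.53), Rbfox1 (−0.56) and Pdyn (−0.66). Others were Gripap1 (−0.73), Slc7a9 (0.77), Epha7 (−0.81), Ptpro (−0.89) and Aqp7 (0.94), with Kl, Chrna4, Ptbp1 and Pfkp given above. Probes undetected on all 4 arrays of an organ have bounds, not folds. The kidney minus brain difference in detected probes was −1725 to −1629 with 1 mouse left out, at an exact p of 0.25, the smallest that 3 pairs allow.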

Other observations

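Families of genes that share a symbol stem were tallied where at least 15 members were tested, as a description with no test, and over all genes tested 16.9% were higher in kidney and 17.7% higher in brain. The solute carriers were the largest such family, with 84 of 242 genes higher in kidney and 40 higher in brain. Cytochrome P450 genes gave 19 of 33 higher in kidney and 0 higher in brain (median log2 difference 1.50), and aldehyde dehydrogenases 10 of 15 higher in kidney and 1 higher in brain (median 2.42). Regulators of G protein signalling gave 0 higher in kidney and 8 higher in brain among 16 (median −1.45), protein phosphatase subunits 1 higher in kidney and 17 higher in brain among 50, and kinesins 1 and 7 among 16. Genes named Rab gave 10 higher in kidney, near the kidney share, and 16 higher in brain, above the brain share, among 55. Mitochondrial ribosomal proteins of the large subunit gave 4 higher in kidney and 0 higher in brain among 42 (median 0.50), whereas cytosolic ones gave 1 and 1 among 32 (median −0.19). None of 70 odorant receptor genes tested was called in either direction. Zinc finger genes named Zfp gave 7 higher in kidney and 21 higher in brain among 165.

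Called probes of 3 genes went in opposite directions, namely Actb, Dph3 (1.35 and −1.11 log2) and Hsd3b2 (3.55 and −1.48 log2), a gene of a family of near-identical copies. Of genes called higher in kidney, 85 were detected on all 4 kidney arrays and on exactly 1 brain array. That array was of mouse 1 for 32 genes, mouse 2 for 26, mouse 3 for 16 and mouse 4 for 11. Of all 1666 genes called higher in kidney, the brain arrays of mice 1 to 4 detected 1257, 1243, 1223 and 1214. Of genes called higher in brain, 136 were detected on all 4 brain arrays and on exactly 1 kidney array. That array was of mouse 1 for 56 genes, mouse 2 for 30, mouse 3 for 28 and mouse 4 for 22. Of all 1751 genes called higher in brain, the kidney arrays of mice 1 to 4 detected 1030, 970, 995 and 961. In both organs the array of mouse 1 detected the most probes of the 4 arrays.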
